A study of Mus musculus with 4 samples.

Results

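Enteroendocrine cells are the hormone-secreting cells of the gut epithelium, and 97 of 12349 cells from mouse small-intestinal adenomas were selected as such from their transcripts. A cell was taken when its barcode held at least 1000 unique molecular identifiers (UMIs, each marking 1 captured transcript) and 200 genes, with at most 20% of UMIs from mitochondrial genes, when at least 2 of the 7 genes Chga, Neurod1, Tph1, Cck, Gcg, Nts and Sct were detected with a sum of at least 10 UMIs, and when fewer than 3 of 5 tuft-cell genes were present. The adenomas came from 11-week-old C57BL/6 mice of 2 genotypes. ApcMin mice carry 1 mutant Apc allele (ApcMin/+) with both copies of Lef1 intact. VApcMinL mice carry the same ApcMin allele together with Villin-Cre and floxed Lef1, so Lef1, a transcription factor of the Wnt pathway, is a target of deletion in the Villin-expressing intestinal epithelium and not in other cells. All mice were labelled male. Each genotype has 2 droplet single-cell libraries, replicate 1 made with kit version 2 and replicate 2 with kit version 3, each from pooled tumors that were not sorted. Within each kit pair, the genotypes can be compared at a like chemistry. Nothing in the labels ties a library to a number of mice, so p-values measure the spread between these pooled libraries. With 2 libraries a group, no exact permutation test over libraries could give a p under 0.333.

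These rare cells arise from the same stem cells as the absorptive cells, through a transient progenitor marked by the transcription factor Neurog3. They store peptide hormones or serotonin in dense-core granules and release them on sensing nutrients, microbial products or stretch. Enterochromaffin cells make serotonin through the enzyme Tph1, whereas peptide-type cells make combinations of hormones such as cholecystokinin (Cck), glucagon-like peptides (Gcg), peptide YY (Pyy), neurotensin (Nts), ghrelin (Ghrl), glucose-dependent insulinotropic peptide (Gip) and somatostatin (Sst).

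The libraries held 44660305 to 128247396 UMIs and 2145 to 4448 cells after filtering, and the mitochondrial limit removed 24.4% to 30.1% of barcodes in 3 libraries and 62.6% in ApcMin replicate 2. The selected cells numbered 15 in ApcMin replicate 1, 11 in VApcMinL replicate 1, 27 in ApcMin replicate 2 and 44 in VApcMinL replicate 2. No selected cell shared its barcode with a selected cell of another library, although 18 barcodes of all cells were common to the 2 kit version 2 libraries. Counts of Lef1, the targeted gene, were not lower in the libraries labelled VApcMinL. In the other epithelial cells it reached 4.63 CPM (UMIs of the gene scaled to a common library total) in ApcMin replicate 1 against 10.5 CPM in VApcMinL replicate 1, and 9.33 CPM in ApcMin replicate 2 against 15.1 CPM in VApcMinL replicate 2. The selected cells held 0, 1, 2 and 9 Lef1 UMIs in the same order, too few to compare. The droplet counts come from transcript ends. Whether these lie outside the deleted exons was not tested, so the counts cannot check the deletion. Each genotype difference reported here is therefore one between the libraries labelled ApcMin and VApcMinL.

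The label was checked against genes that the selection had not used. Secretory granule and prohormone processing genes other than Chga (25 genes, among them the granin Chgb, the convertase Pcsk1 and its inhibitor Pcsk1n, and carboxypeptidase E, Cpe) split the 97 cells into groups that did not overlap. In 78 cells these genes held at least 25.6 UMIs per 10000, with 5 to 21 of the 25 genes detected. In the other 19 cells they held at most 6.34 UMIs per 10000, with no more than 5 genes detected. The 78 cells are called granule-positive here, with a limit of 10 UMIs per 10000 that was set in the gap after these values were seen. Most of the other 19 cells carried many UMIs of defining genes of other lineages, and a few, such as cell 2 of ApcMin replicate 1 with 4 UMIs of Defa24 and 0 of Muc2, did not. Cell 23 of ApcMin replicate 2 held 54321 UMIs of the Paneth cell defensin Defa24 among 164995 UMIs in all, with 9 UMIs of Sct. Cell 17 of VApcMinL replicate 2 held 2071 UMIs of the goblet cell gene Zg16 with 12 of Sct. A cell each of VApcMinL replicate 1 and ApcMin replicate 2 held 229 and 502 UMIs of the mast cell protease Mcpt1 together with 32 and 13 UMIs of Tph1, a gene that mast cells also use.

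**Figure D1:**
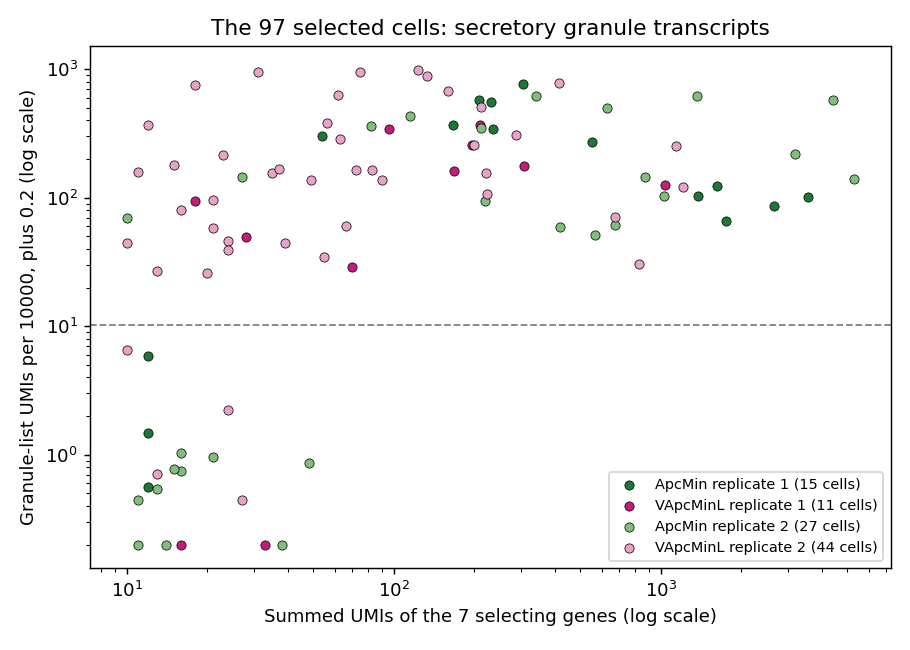
Each point is 1 of the 97 selected cells, with the summed UMIs of the 7 selecting genes on the x axis and UMIs of the 25 granule genes per 10000, plus 0.2, on the y axis (both log scales), coloured by library. The dashed line marks the limit of 10 per 10000, and the 19 cells beneath it lie apart from the 78 above.

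The granule-positive cells were 12 in ApcMin replicate 1, 9 in VApcMinL replicate 1, 17 in ApcMin replicate 2 and 40 in VApcMinL replicate 2, so that ApcMin replicate 2 lost 10 of its 27 selected cells. They held medians of 8032, 4106, 7719 and 6975 UMIs, under the medians of 12600, 12775, 27356 and 21707 of other epithelial cells. By contrast, the 19 others had medians of 15305 to 45188 UMIs in the 4 libraries. Near the edge of the selection, 10 cells had a sum of 10 to 12 UMIs, of which 4 were granule-positive, and 12 cells with 2 or more of the genes fell just outside with 8 or 9 UMIs, none of them over the granule limit. The selecting genes are also found free of cells. In barcodes with 10 to 100 UMIs they summed to 0.869 to 2.35 UMIs per 10000, and immune cells averaged 0.0183 to 0.602 UMIs of them a cell at median depths of 2289 to 3725 UMIs. Several markers of cells outside the epithelium were at or near 0 in the granule-positive cells: Sox10 of enteric glia and the 4 fibroblast genes had 0 UMIs, and the leukocyte gene Ptprc had 1. Others were present. Jchain of plasma cells had UMIs in all 12 granule-positive cells of ApcMin replicate 1, and Ret of the enteric neuron list had enough UMIs to be tested. With every cell thinned to 1000 UMIs drawn at random, mast cell genes were found in 10.3% of granule-positive and 6.19% of other epithelial cells. Endothelial genes were found in 1.28% and 6.80%. The sex label did not hold in full. Xist, the transcript of the inactive X chromosome in females, was present in all 9 granule-positive cells of VApcMinL replicate 1 and in 14 of 40 of VApcMinL replicate 2, where 15 other cells held the Y-linked Ddx3y or Eif2s3y instead and no cell held both. Neither ApcMin library had a granule-positive cell with Xist.

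Granule genes were detected to differing extents in the granule-positive cells, with a median of 13 of 25 genes a cell. Since granule genes set the limit, their levels are given as a description. Chgb, a structural protein of dense-core granules, was detected in 97.4% of these cells against 3.08% of other epithelial cells, Cpe in 88.5% against 11.8%, and Pcsk1n in 87.2% against 0.867%. Scg5 was detected in 65.4%, Snap25 in 60.3% and Scg2 in 51.3% of these cells. Ranked by the lowest of the 4 per-library ratios to other epithelial cells (means per 10000 UMIs plus 0.1), the 3 highest genes outside the selecting set were Chgb with a lowest ratio of 1008, Pyy with 189 and Pcsk1n with 103. Scg2 (65.1), Reg4 (52.1), Ghrl (41.0), Cpe (30.2), the fetal protein gene Afp (28.4), Resp18 (26.3) and Tac1 (22.3) completed the first 10. Genes of electrical and vesicle function followed. Snap25, a core part of the membrane fusion machinery, had a lowest ratio of 21.3, the sodium channel Scn3a 18.1, complexin Cplx2 17.8 and the calcium channel subunit Cacna2d1 17.6. Insm1, a transcription factor of endocrine differentiation, was 14.2. These ratios describe how the cells were chosen and were not tested.

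The transcription factors of the lineage were spread over the cells. Of 25 factors on the list, all were detected in at least 5 of the 78 cells. Neurod1, which was also a selecting gene, was found in 69 cells, Sox4 in 63, Insm1 in 45, Fev in 41 and Nkx2-2 in 34. Neurog3, the progenitor factor, was found in 5 cells, which were 1 of VApcMinL replicate 1 with 10 UMIs in all and 4 of VApcMinL replicate 2 with 66. Cell 38 of VApcMinL replicate 2 held 44 of these UMIs, with no peptide hormone above 4 UMIs. Hhex, a factor known from somatostatin cells, had 49 UMIs in 6 cells, 1 of VApcMinL replicate 1 and 5 of VApcMinL replicate 2.

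The hormones divided the cells. Counting a transcript as present at 5 UMIs or more, Sct (secretin) was present in 62 of 78 cells, Tph1 in 36, Cck in 29, Ghrl in 21, Tac1 (the substance P precursor) in 20, Pyy in 19, Gcg in 10, Nts and Cartpt in 9 each, Gip in 7, and Sst and Iapp in 6 each. The hormone transcript could be a large part of a cell. Gip reached 34.9% of all UMIs of a cell, Sst 26.2%, Pyy 22.3%, Sct 19.97%, Nts 15.2%, Cck 14.7% and Gcg 11.7%, against at most 0.840% for Tph1 and 2.18% for Tac1. Insl5, which marks cells of the large bowel, had 0 UMIs, as did Vip, Penk, Npw and Adcyap1.

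**Figure D2:**
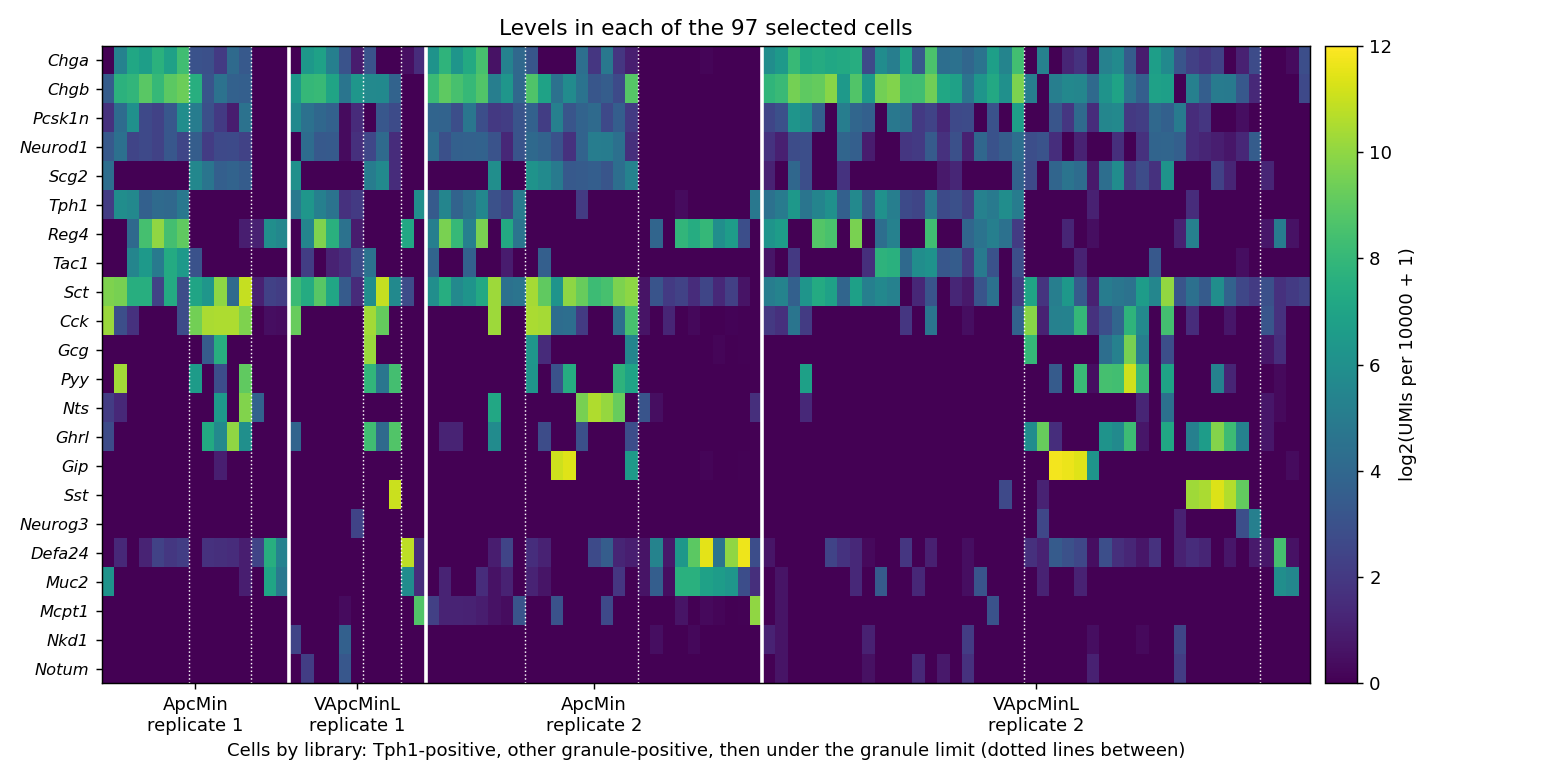
Columns are the 97 selected cells by library, ordered within each as Tph1-positive, other granule-positive and under the granule limit (dotted lines), and rows are transcripts, coloured by log2(UMIs per 10000 + 1). Among granule-positive cells, Reg4 lies mostly in the first block of each library and Gcg, Gip and Sst in the second. Sst is empty in both ApcMin libraries and Gip near empty with kit version 2. Defa24, Muc2 or Mcpt1 mark many cells of the third block, where Reg4 is also high in several (2014 UMIs in cell 26 of ApcMin replicate 2).

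Hormones kept to a few combinations. All 10 Gcg cells also held Cck and Sct, and 8 of the 10 held Pyy and 8 held Ghrl. All 7 Gip cells held Cck beside 90 to 2386 UMIs of Gip, and none held Sst, Tac1, Nts or Tph1. All 6 Sst cells held Ghrl and Iapp, none held Cck, and every cell with 5 UMIs of Iapp was an Sst cell. All 9 Cartpt cells held Tph1, as did 15 of the 20 Tac1 cells. By contrast, Tph1 at this level was absent from the Gcg, Gip and Sst cells, and it met Pyy in 2 of 19 cells and Ghrl in 1 of 21. Cck and Tph1 overlapped in 6 cells, which are 20.7% of the Cck cells and 16.7% of the Tph1 cells. Scrublet, which scores each cell against simulated pairs of cells, marked 4 of the 78 as doublets at the fixed rate used, all in VApcMinL replicate 2.

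Some hormones were unevenly spread over the libraries. Sst was 0 in both ApcMin libraries, 12787 CPM in VApcMinL replicate 1 and 20157 CPM in VApcMinL replicate 2. The ApcMin zeros stand for 0 UMIs in 29 granule-positive cells. In VApcMinL replicate 1 all 1090 UMIs came from 1 cell, and in VApcMinL replicate 2 the 8177 UMIs came from 7 cells, 5 of them with 5 UMIs or more. Sst is not a selecting gene, and a cell of ApcMin replicate 2 with 2984 Sst UMIs and 19 granule genes fell outside the rule with a sum of 3. Nts, a selecting gene described without a test, went the other way, with 916 UMIs in 4 cells of ApcMin replicate 1, 0 UMIs in VApcMinL replicate 1, 1908 UMIs in 5 cells of ApcMin replicate 2 and 23 UMIs in 3 cells of VApcMinL replicate 2. Both ApcMin libraries lay above both VApcMinL libraries, at 10565 and 11518 CPM against 0 and 56.7 CPM, and 1 cell held 90.6% of the Nts UMIs of ApcMin replicate 1. Gip was at 11.5 and 0 CPM with kit version 2 and at 18634 and 16230 CPM with kit version 3, ApcMin first, so that it followed the kit pair and not the genotype.

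Cck and Sct were selecting genes and are described without a test. Cck stood at 72916 and 44156 CPM in ApcMin replicates 1 and 2 and at 8435 and 4444 CPM in VApcMinL replicates 1 and 2. Sct stood at 52236 and 53145 CPM against 8259 and 5241 CPM. In these summed UMIs neither gene's groups overlapped. The ApcMin level was 8.64 and 9.94 times the VApcMinL level for Cck and 6.32 and 10.1 times for Sct, in the kit version 2 and 3 pairs. Deep cells weigh most in such sums. In VApcMinL replicate 1, a single cell made up 41.7% of the summed UMIs and held 0 UMIs of Cck and 35 of Sct. Means that weigh each cell alike are not given for these genes, so the ratios describe the sums and not the typical cell. The cells behind these sums were few: Cck was detected in 9, 3, 8 and 21 cells of the kit version 2 pair and then the kit version 3 pair, ApcMin first. Cells with at least 5 Cck UMIs were 7 of 12, 3 of 9, 7 of 17 and 12 of 40 in that order. Each held 5 to 1585 UMIs of Cck in ApcMin replicate 1, 68 to 523 in VApcMinL replicate 1, 5 to 2472 in ApcMin replicate 2 and 5 to 851 in VApcMinL replicate 2, so that the ranges overlapped. Gcg was unordered by genotype, at 2168, 5643, 1002 and 2260 CPM in that library order, as was Pyy at 15986, 3296, 3260 and 8462 CPM.

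**Figure D3:**
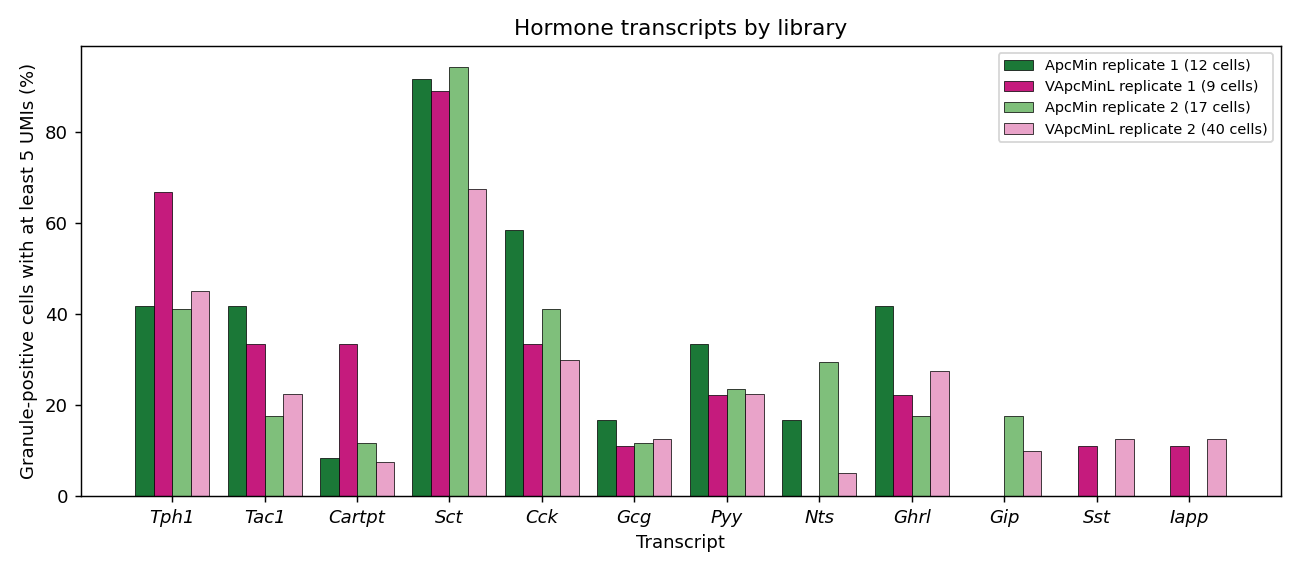
Bars give the percentage of granule-positive cells with at least 5 UMIs of each hormone transcript, Tph1 included, for the 4 libraries with their cell numbers in the key. Sst and Iapp have bars only in the VApcMinL libraries (6 cells in all), Gip only with kit version 3, and Nts is higher in both ApcMin libraries.

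For context on 4 of these secretory genes, their promoters are shown from 250 bases before to 50 after the start, as given by RefSeq for GRCm38.p6, since they hold the cAMP response element TGACGTCA (in capitals), the palindromic site bound by CREB-type factors. The regions are chr2:132781392-132781691 (+ strand), chr1:79439977-79440276 (- strand), chr16:23890795-23891094 (- strand) and chr13:99900634-99900933 (- strand), each printed 5′ to 3′ along its gene.
Chgb: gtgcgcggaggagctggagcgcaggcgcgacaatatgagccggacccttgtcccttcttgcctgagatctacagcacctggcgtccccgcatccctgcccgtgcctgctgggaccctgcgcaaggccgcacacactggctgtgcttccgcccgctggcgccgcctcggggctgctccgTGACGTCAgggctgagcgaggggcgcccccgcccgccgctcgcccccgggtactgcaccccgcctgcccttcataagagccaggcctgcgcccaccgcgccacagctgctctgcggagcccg
Scg2: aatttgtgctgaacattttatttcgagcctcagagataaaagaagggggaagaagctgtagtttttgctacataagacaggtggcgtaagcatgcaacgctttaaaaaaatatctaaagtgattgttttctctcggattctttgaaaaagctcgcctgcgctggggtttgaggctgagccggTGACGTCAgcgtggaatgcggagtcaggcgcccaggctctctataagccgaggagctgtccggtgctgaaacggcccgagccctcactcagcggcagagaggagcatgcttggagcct
Sst: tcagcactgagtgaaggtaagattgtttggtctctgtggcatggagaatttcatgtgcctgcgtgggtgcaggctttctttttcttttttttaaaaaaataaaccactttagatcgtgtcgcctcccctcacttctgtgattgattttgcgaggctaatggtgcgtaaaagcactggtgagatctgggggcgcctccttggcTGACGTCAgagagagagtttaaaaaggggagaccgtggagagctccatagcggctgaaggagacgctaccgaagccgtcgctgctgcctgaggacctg
Cartpt: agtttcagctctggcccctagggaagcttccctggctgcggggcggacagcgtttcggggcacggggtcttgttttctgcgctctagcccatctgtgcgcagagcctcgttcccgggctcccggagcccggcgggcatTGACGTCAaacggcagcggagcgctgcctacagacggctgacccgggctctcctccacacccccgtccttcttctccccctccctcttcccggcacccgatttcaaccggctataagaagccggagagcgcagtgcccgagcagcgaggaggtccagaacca
The element, searched on both strands, was present in 588 of 32851 promoters of this length (1.79%). Among the granule list, 20 of 26 genes were matched and 3 held it, and among the peptide hormones 17 of 19 were matched and 2 held it. None of the 7 selecting genes did. A match is a description of letters and not of binding.

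Next, the abundance of the cells was compared between the genotypes. All selected cells were 0.742% of epithelial cells in ApcMin replicate 1 (15 of 2022; exact 95% binomial interval 0.416% to 1.22%), 0.421% in VApcMinL replicate 1 (10 of 2375; 0.202% to 0.773%), 1.35% in ApcMin replicate 2 (26 of 1921; 0.886% to 1.98%) and 1.01% in VApcMinL replicate 2 (41 of 4042; 0.729% to 1.37%). The intervals cover counting error only. The genotype means were 1.05% ± 0.432 (SD, n = 2) for ApcMin and 0.718% ± 0.420 for VApcMinL, a difference of -0.330 percentage points (VApcMinL minus ApcMin) that was within the spread between libraries (exact two-sided permutation test, p = 0.667), with -0.321 and -0.339 points in the kit version 2 and 3 pairs. Granule-positive cells gave 0.593%, 0.379%, 0.885% and 0.940% in the same library order, and the difference of -0.0797 points (exact permutation p = 1) had opposite signs in the 2 kit pairs, -0.215 and 0.0552 points. Of all cells, the selected cells were 0.536%, 0.372%, 1.26% and 0.989% (difference -0.217 points, exact permutation p = 0.667), and without ApcMin replicate 2 the difference was 0.144 points, without VApcMinL replicate 1 0.0917 points. A difference in abundance was thus not detectable with these libraries.

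Cells that make serotonin were counted next. A cell was called Tph1-positive with at least 2 Tph1 UMIs at 2 or more per 10000, and Tph1-negative with 0, and cells between were left out. Since Tph1 was a selecting gene, the shares are a description with no test. Among all selected cells the positive share was 46.7% in ApcMin replicate 1 (7 of 15; 21.3% to 73.4%), 63.6% in VApcMinL replicate 1 (7 of 11; 30.8% to 89.1%), 36.0% in ApcMin replicate 2 (9 of 25; 18.0% to 57.5%) and 50.0% in VApcMinL replicate 2 (21 of 42; 34.2% to 65.8%). Both VApcMinL values lay above both ApcMin values, with means of 56.8% ± 9.64 and 41.3% ± 7.54 (SD, n = 2), a difference of 15.5 percentage points. These counts include the 2 Tph1-positive cells with Mcpt1 and the 16 Tph1-negative cells under the granule limit. Among granule-positive cells the shares were 58.3%, 66.7%, 50.0% and 55.3%, and the difference was 6.80 points, with overlapping groups.

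**Figure D4:**
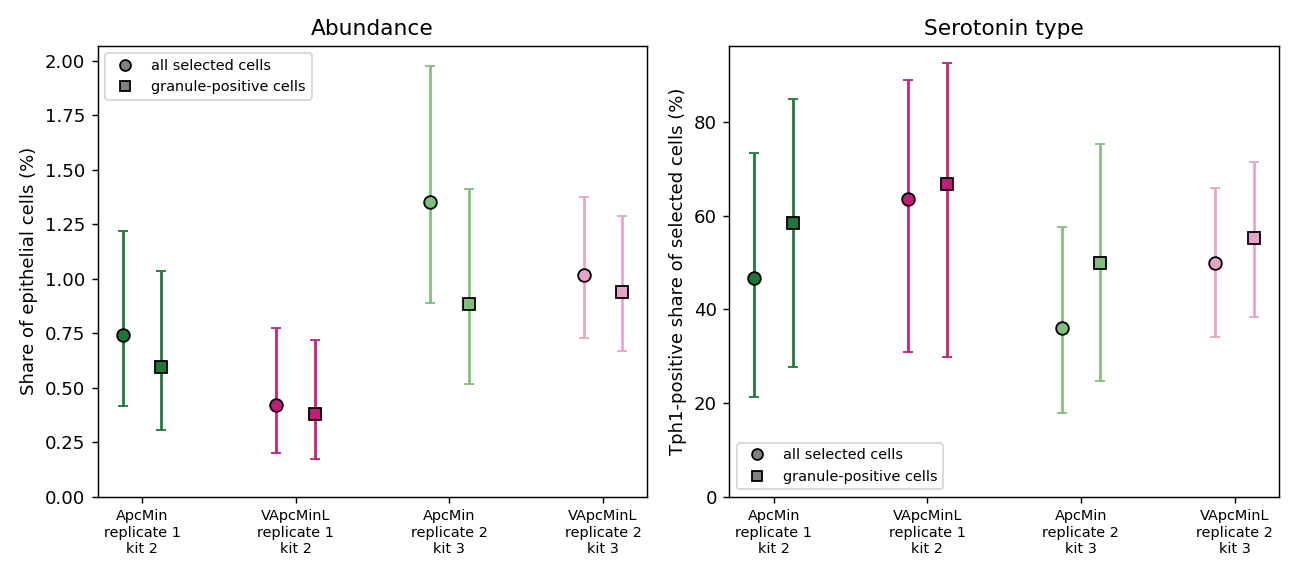
Left, selected cells as a percentage of epithelial cells in each library; right, the Tph1-positive percentage of selected cells. Circles are all selected cells, squares are granule-positive cells, and bars are exact 95% binomial intervals, which overlap between the genotypes of each kit pair in both panels.

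What set the serotonin-type cells apart from the rest was tested in sums of UMIs for each library and class with edgeR's quasi-likelihood test, with library as a block and the 7 selecting genes left out. With all selected cells, 20 of 1294 genes were called at an adjusted p under 0.05 (1.55%), 9 higher and 11 lower in Tph1-positive cells. The lower genes included Defa24, Spink4, Muc2, Agr2 and Retnlb, which are known from Paneth and goblet cells and stand in the 19 cells under the granule limit. Of these 19 cells, 16 were Tph1-negative. With granule-positive cells only, 32 of 941 genes were called (3.4%), 11 higher (1.17%) and 21 lower (2.23%), and 5 of the 32 were among the 20 (Afp, App, Cartpt, Fabp5 and Snap25). Without the library block the counts were 14 and 6. The values that follow are from these cells, 42 Tph1-positive and 33 Tph1-negative.

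Reg4, a secreted lectin known from enterochromaffin cells, stood at 26718, 6987, 23164 and 6874 CPM in Tph1-positive cells of the kit version 2 pair and then the kit version 3 pair, ApcMin first, and at 24, 0, 0 and 11 CPM in Tph1-negative cells. The groups did not overlap in any library, and the log2 difference was 10.02 ± 0.82 (SE; edgeR adjusted p = 8.8e-07). Afp was detected in 18 of 42 positive cells and in 0 of 33 negative cells (adjusted p = 2.3e-06), and Cartpt, a neuropeptide precursor, in 16 and 0 (adjusted p = 8.0e-06). Their levels in positive cells ran from 442 to 2622 CPM and from 190 to 1214 CPM. Lmx1a, the transcription factor of the enterochromaffin lineage, was found in 23 positive cells and in 0 negative cells but was too low to be tested. Ccnd2, a D-type cyclin, was higher by 2.43 ± 0.44 on the log2 scale (adjusted p = 0.0040), in 32 of 42 cells against 9 of 33. App, the amyloid precursor gene, was higher by 1.66 ± 0.37 (adjusted p = 0.019). Snap25 was higher by 1.93 ± 0.38, given as a description since it was among the genes that set the granule limit. S100a6, Gpx3 and the mitochondrial chaperonin genes Hspe1 and Hspd1 were also called higher. Without the cells over 20000 UMIs 18 genes were called, 12 of them among the 32 (22 of the 32 still passed the filter). Reg4, Afp, Ccnd2, Snap25, App, S100a6 and Gpx3 were called in both, and Cartpt, Hspe1 and Hspd1 were not.

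Several genes known from peptide-type cells were lower in Tph1-positive cells. The Tph1-negative cells had been selected by Cck, Gcg, Nts, Sct, Chga or Neurod1, so the selection favours genes that go with these in that class. Its part in the differences below was not tested. Isl1, a LIM-homeodomain factor of peptide cells, stood at 0, 0, 32 and 11 CPM in positive cells and at 406, 570, 485 and 518 CPM in negative cells of the same libraries, a log2 difference of -5.40 ± 0.49 (edgeR adjusted p = 2.1e-06). It was detected in 2 of 42 and 25 of 33 cells. Scg2, the precursor of secretoneurin, was at 379, 187, 1290 and 102 CPM in positive cells and 1672, 1899, 4028 and 875 CPM in negative cells (-2.72 ± 0.35). Scg2 was among the genes that set the granule limit, so these values are a description. Fabp5, a fatty acid binding protein, was lower by a log2 difference of -4.13 ± 0.48, the long-chain fatty acid receptor Ffar1 by -3.76 ± 0.60 and the ETS factor Etv1 by -2.39 ± 0.45 (adjusted p = 2.8e-05, 0.0011 and 0.0056). Cpe, a granule-list gene like Scg2 and likewise a description, was lower by -2.26 ± 0.35. Ttr, Cdkn1c, Fam183b and Myl7 were called lower as well. Without the cells over 20000 UMIs, Isl1, Fabp5, Cpe and Ghrl were still called, and Scg2, Ffar1, Etv1, Pyy, Ttr, Cdkn1c, Fam183b and Myl7 were not. Among hormones, Ghrl (-8.00 ± 1.93) and Pyy (-6.62 ± 1.67) were called lower. These values are a description, since 8 of the 10 cells with the selecting gene Gcg held Ghrl and 8 held Pyy. Each had 1 library that went against the rest: Ghrl was at 1216 CPM in positive and 235 CPM in negative cells of ApcMin replicate 2, and Pyy at 18622 and 13162 CPM in ApcMin replicate 1.

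**Figure D5:**
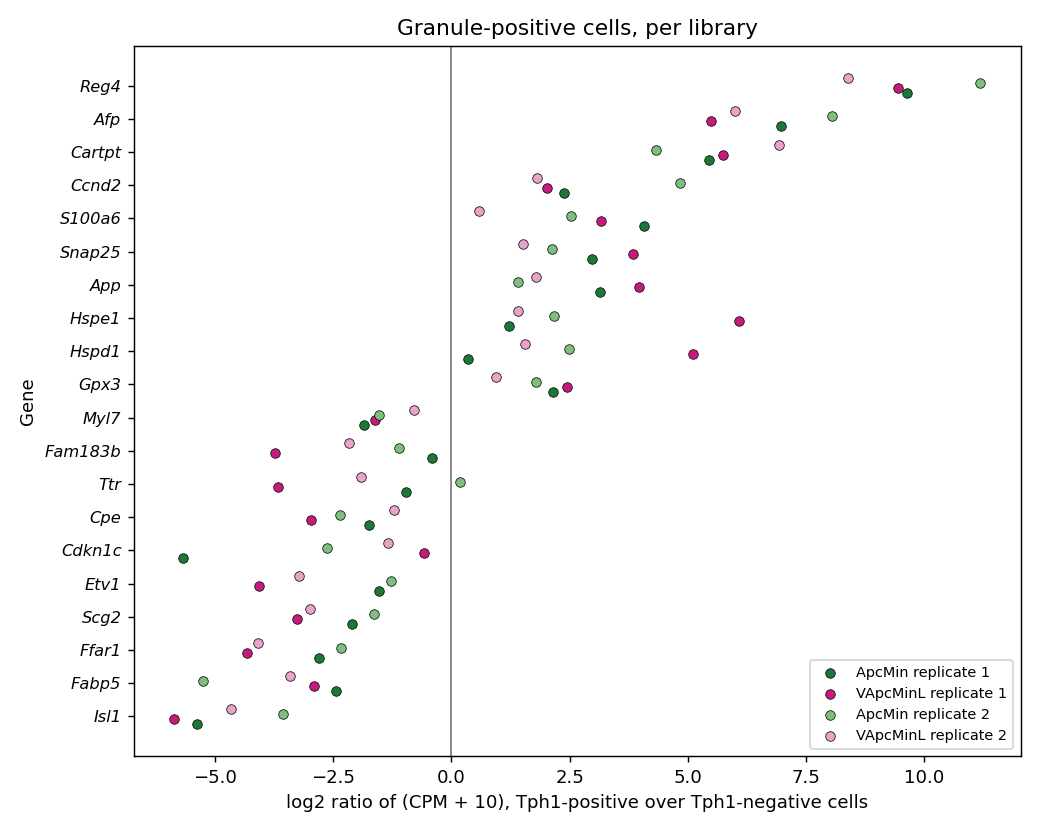
For 20 genes named by rule, the x axis gives the log2 ratio of (CPM + 10) between Tph1-positive and Tph1-negative granule-positive cells, with 1 point per library. The points of each gene lie on 1 side of 0 in all 4 libraries, apart from Ttr in ApcMin replicate 2.

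Not every granule gene followed this division. These genes, Chga aside, had also set the granule limit, so their calls with granule-positive cells are not read further. Of 14 granule and prohormone processing genes that passed the filter on low counts, 1 was called higher (Snap25) and 3 lower (Scg2, Cpe and Aplp1) in Tph1-positive cells, with a median log2 difference of -0.45 against 0.01 over all genes tested. Chgb was at 34903, 7281, 19411 and 23473 CPM in positive cells and 2484, 3133, 19817 and 2663 CPM in negative cells, and in ApcMin replicate 2 the 2 classes were level. It was called with all selected cells (3.50 ± 0.57, edgeR adjusted p = 0.016) and not with granule-positive cells (1.83 ± 0.76, adjusted p = 0.29). Slc18a1, the transporter that loads serotonin into granules, was detected in 38 of 42 positive and 10 of 33 negative cells among the granule-positive cells, where it was not called. It was called with all selected cells (4.34 ± 0.40, adjusted p = 0.0014), whose Tph1-negative class includes cells under the granule limit. Of the serotonin list, 5 of 15 genes passed the filter with granule-positive cells and 1, Reg4, was called. Of the transcription factors, 4 of 25 passed and 2 were called lower, Isl1 and Etv1. No gene of the stress response list, of which 7 of 10 were tested, was called in this split.

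The genotypes were then compared within the selected cells, with kit as a block. Among all selected cells 4 of 4543 genes passed edgeR's test at an adjusted p under 0.05 (0.088%), all higher in VApcMinL, with 193 at an unadjusted p under 0.05: Sst (15.22 ± 0.83 on the log2 scale, adjusted p = 0.011), Xist (10.41 ± 0.77, adjusted p = 0.029), Iapp (8.16 ± 0.77, adjusted p = 0.029) and the ion channel Asic5 (6.54 ± 0.67, adjusted p = 0.036). A fitted log2 difference against zeros depends on the model's prior count. The Sst cell of ApcMin replicate 2 outside the selection, with 2984 UMIs, is not in these sums. Among the unselected epithelial cells of that library, 1 cell held 265 of 269 Iapp UMIs and 1 cell held 27 of 30 Asic5 UMIs, which are not in the sums either. Iapp was detected in 1 cell of ApcMin replicate 1, in 1 of VApcMinL replicate 1, in 0 of ApcMin replicate 2 and in 5 of VApcMinL replicate 2. The Asic5 UMIs of VApcMinL replicate 1 also came from 1 cell. Clu, Ccl6, Ifitm1, Neurog3, Notum and Lgals3 had the next smallest p and were not called (adjusted p = 0.065 to 0.13). In VApcMinL replicate 1 the Sst value rested on 1 cell. Beside it stand the unselected Sst cell of ApcMin replicate 2 and the sex difference between the libraries, whose part in the result was not tested. None of the 6 Sst cells held a Y-linked UMI, and 3 of them held Xist.

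With granule-positive cells only, 110 of 2111 genes were called (5.21%), 41 higher (1.94%) and 69 lower (3.27%) in VApcMinL, and all 4 genes above were among them. Of the 110, 5 were selecting genes and are not read here. The count rested on few cells. A single cell of VApcMinL replicate 1 with 35548 UMIs in the genes common to all libraries made up 41.7% of the summed UMIs of its library, against 11.0% to 20.2% for the deepest cell of each other library. Without the 9 cells over 20000 UMIs, 5 of 1686 genes were called, of which Sst, Iapp, Asic5 and Xist are no selecting genes, and the same 5 were called without the kit block. Fits that leave out 1 library have a single library and kit in 1 genotype and were run without the kit block, so their counts are not read.

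Granule and prohormone processing genes had set the granule limit, so their genotype levels are a description with no test. Cpe was at 1776 and 1382 CPM in ApcMin replicates 1 and 2 and at 328 and 486 CPM in VApcMinL replicates 1 and 2. Scg2 was at 1003 and 2409 CPM against 399 and 456 CPM, and Snap25 at 254 and 447 CPM against 117 and 108 CPM. In these summed UMIs their groups did not overlap. Means over cells, on the scale of the earlier ratios to other epithelial cells, weigh each cell alike. Scg2 means were 10.4 and 18.1 in ApcMin replicates 1 and 2, and 16.5 and 6.64 in VApcMinL replicates 1 and 2. Snap25 means were 2.90 and 4.94 against 3.46 and 2.24, so the groups of both genes overlapped. Cpe means were 16.3 and 13.9 against 10.4 and 6.91, without overlap. Pcsk1n did not order by genotype, at 1626 and 803 CPM in ApcMin and 481 and 878 CPM in VApcMinL. Among transcription factors, 15 were tested, 1 of them the selecting gene Neurod1. Neurog3 was called higher and Etv1 and Onecut3 lower, and none of these was called without the cells over 20000 UMIs. A cell of ApcMin replicate 2 with 44 Neurog3 UMIs and 7 granule genes stood outside the selection and is not in the Neurog3 sums. In the serotonin list, Reg4 (13829 and 13226 CPM in ApcMin, 6124 and 3209 CPM in VApcMinL) and the irritant receptor Trpa1 were lower, of 10 tested.

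Goblet genes were also lower in VApcMinL in the summed UMIs. With every cell thinned to 1000 UMIs, the goblet list averaged 9.58 and 2.76 UMIs a cell in ApcMin replicates 1 and 2. It averaged 6.44 and 1.075 in VApcMinL replicates 1 and 2. These means were lower in VApcMinL within each kit pair, but the groups overlapped, and kit version 2 stood above kit version 3. Tff3, a secreted trefoil peptide, was at 6874 and 3507 CPM in the granule-positive cells of ApcMin replicates 1 and 2 and at 2065 and 621 CPM in VApcMinL, and 3 of 3 tested goblet genes (Tff3, Fcgbp and Zg16) were called lower, as were Defa24, the 1 Paneth gene tested, and Jchain, a plasma cell gene with UMIs in all 12 cells of ApcMin replicate 1 and in 0 of 40 cells of VApcMinL replicate 2. Jchain UMIs were also present in 45.5% of other epithelial cells, at 11437 and 305 CPM in ApcMin replicates 1 and 2 and 2801 and 179 CPM in VApcMinL replicates 1 and 2. In ApcMin replicate 1, 1 cell held 80.7% of the Tff3, 91.3% of the Fcgbp and 95.9% of the Zg16 UMIs. Defa24 was also found free of cells, at 30.1, 7.17, 10.2 and 4.63 UMIs per 10000 in barcodes with 10 to 100 UMIs of the kit version 2 pair and then the kit version 3 pair, ApcMin first. Their part in the result was not tested. The genes that were called higher in VApcMinL included Gkn3, Wfdc18, Clu, Ifitm1, Ctse and Kcne3. Gkn3 had 4 and 3 UMIs in ApcMin replicates 1 and 2, and 358 and 143 UMIs in VApcMinL replicates 1 and 2. Of the VApcMinL replicate 1 UMIs, 98.9% came from 1 cell, and 1 cell held 95.1% of its Clu and 99.1% of its Wfdc18 UMIs. In VApcMinL replicate 2, Gkn3 was spread over 9 cells and Clu over 22 of 40.

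As a list sum, Wnt and adenoma genes were present at a level near that of other epithelial cells, though under it in each of the 4 libraries. After every cell was thinned to 1000 UMIs, the 23 genes of the list averaged 1.04 UMIs in granule-positive cells and 1.13 in other epithelial cells, and 52.6% and 51.5% of cells held at least 1. Genes of the list went both ways. Nkd1 averaged 0.0385 UMIs in granule-positive against 0.115 in other epithelial cells, and Notum 0.0385 against 0.0796. Prox1 averaged 0.167 against 0.0857, and Prom1 0.192 against 0.158. A cell with at least 2 UMIs in 2 or more of Nkd1, Notum, Wif1 and Lef1 (a combination chosen after their values were seen) was found 0 times among 12 granule-positive cells of ApcMin replicate 1 and 17 of ApcMin replicate 2, 1 time among 9 of VApcMinL replicate 1 and 3 times among 40 of VApcMinL replicate 2. Other epithelial cells met it in 9.92%, 15.1%, 18.0% and 28.1% (ApcMin replicates 1 and 2, then VApcMinL replicates 1 and 2), at greater depth. The VApcMinL replicate 1 cell was the deepest one again, with 42 UMIs of Nkd1 and 31 of Notum, 8 of Tph1, 26 of Chga and 78 of Reg4 in the same barcode, and Scrublet did not mark it as a doublet, while it marked 1 of the 3 cells of VApcMinL replicate 2. Cell cycle genes were sparse. In thinned cells, the 12 cell cycle genes averaged 0.244 UMIs in granule-positive cells and 0.727 in other epithelial cells, and the 10 stress response genes averaged 5.08 and 3.02 UMIs. The stress list stood above other epithelial cells in each of the 4 libraries.

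Transcripts of nutrient sensors had low counts. Of 20 receptors and sensors listed, 19 had a UMI in the granule-positive cells and Npr1 had none. Ffar2, a short-chain fatty acid receptor, had a UMI in 53.8% of granule-positive cells, against 4.50% of other epithelial and 2.62% of immune cells. The long-chain fatty acid receptor Ffar1 had one in 28.2% against 0.127% of other epithelial cells, and the potassium channel subunit Abcc8 in 24.4% against 0.185%. The galanin receptor Galr1 had one in 21.8% and in 0 of 10268 other epithelial cells. By contrast, the sodium-glucose transporter Slc5a1 had one in 32.1% of granule-positive cells and in 42.2% of other epithelial cells, which were deeper. Asic5, the channel called between the genotypes, had 104 UMIs in 8 cells.

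Finally, the genotype difference in enteroendocrine cells was set against that in other epithelial cells by an interaction term in edgeR, with library as a block. Among all selected cells it was called for 123 of 13916 genes (0.884%), and among granule-positive cells for 54 of 13730 (0.393%), with 28 genes in common. Sst and Iapp had the smallest p in both, and Asic5 and Neurog3 were called in both. For these 4 genes the selection enters both sides of this test, since the ApcMin replicate 2 cells with 2984 Sst, 265 Iapp, 27 Asic5 and 44 Neurog3 UMIs that it left out were counted among the other epithelial cells, and their calls are not read further. In other epithelial cells Sst was at 0.28 CPM in ApcMin replicate 1, 1.98 CPM in VApcMinL replicate 1 and 1.33 CPM in VApcMinL replicate 2, and at 53.6 CPM in ApcMin replicate 2. The list from all selected cells also held the Paneth cell genes Defa21, Defa22 and Ang4. The granule-positive fit carried a median log2 difference of 0.28 over all genes, relative to which its values stand. Without the library block the counts were 1 and 0 at the same threshold, with 288 and 405 genes at an unadjusted p under 0.05, and without the cells over 20000 UMIs the granule-positive count was 5, with Iapp and Asic5 beside Sst, Neurog3 and the selecting gene Nts.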

How the data were processed

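The data were droplet single-cell RNA-seq of small-intestinal adenomas in 4 libraries. The deposited matrices hold raw UMI counts per gene and barcode, made by the authors with Cell Ranger 2.1.1 (Seurat 3.1.1 is also named in the submitters' processing notes), with the genome mm10. Genes listed in all 4 libraries (27514) were used. The members and gene lists were chosen with earlier results of these data known, and the granule-positive set and the alternatives on it were chosen after seeing the data. Doublets were scored with Scrublet (scanpy 1.11.5) at 0.8% per 1000 cells and kept; their removal was an alternative. Counts were summed per library and class and tested with edgeR 4.0.16 (quasi-likelihood, TMM, filterByExpr with a minimum count of 10, Benjamini-Hochberg), with kit or library as a block; DESeq2 1.42.0 was an alternative. Replicate numbers mark the kit in the labels, and kit-pair deviations correlated at 0.106 (4543 genes) and 0.378 (granule-positive cells, 2111 genes). Shares were compared by exact two-sided permutation over 6 arrangements, with exact Clopper-Pearson intervals. Named genes were Lef1, the selecting genes, genes of the fixed lists, the 20 highest in the profile, and up to 10 called rises and 10 falls per comparison with 1 direction in both kit pairs (all 4 libraries for the Tph1 split) and at least 20 CPM, or the 10 smallest p where fewer than 5 genes were called. Tested on simulated data with 200 changed genes, the genotype comparison over 4543 genes recovered 0% of 2-fold, 38.8% of 4-fold and 78.8% of 8-fold changes. The simulated counts had a single common dispersion, no kit effect and no cell that dominates a sum, so recovery in these libraries may be lower.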

Additional observations from a re-analysis of the deposited data

Results flagged for a closer look

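A genotype difference that differs between enteroendocrine and other epithelial cells was called by the edgeR interaction term for few genes. These were 123 of 13916 genes (0.884%) with all selected cells and 54 of 13730 (0.393%) with granule-positive cells. Without the library block the counts were 1 and 0, and with thinned cells 2 and 2. All selected cells include the 19 under the granule limit. Groups of 2 libraries are too small for a test of outlying samples.

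Outside the selection, 5 cells held at least 7 granule genes. In ApcMin replicate 2 these were a cell with 2984 Sst UMIs and 19 granule genes, a cell with 44 Neurog3 UMIs, and a cell with 3 Sct UMIs, and in VApcMinL replicate 2 a cell with 718 Ghrl and 16 Chga UMIs and a cell with 88 Gip UMIs.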

How the results depend on the processing

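The number of genes called depended on the processing, and the cause was not tested beyond what each setting removes. For the genotype comparison (4 genes), DESeq2 called 14, DESeq2 size factors in edgeR 0, no filter 7, a mitochondrial limit of 10% 0, a rule sum of at least 20 51, thinning to 1000 UMIs 0 and granule-positive cells 110, and leaving out 1 library gave 0 (without VApcMinL replicate 2) to 81 (without VApcMinL replicate 1). With granule-positive cells (110), the fit with no replicate block called 5, DESeq2 21, thinning 2 and leaving out cells over 20000 UMIs 5, and leaving out 1 library gave 6 to 69. For the Tph1 split (20), DESeq2 called 38, no filter 45, removal of doublets 39, thinning 4 and granule-positive cells 32, with 11 to 37 on leaving out 1 library. With granule-positive cells (32), no replicate block gave 6, thinning 2 and no cells over 20000 UMIs 18, with 15 to 28 on leaving out 1 library. For the interaction (123), no replicate block gave 1, DESeq2 20, no filter 0, thinning 2 and granule-positive cells 54, with 26 to 202 on leaving out 1 library; with granule-positive cells (54) these were 0, 18, 11 and 2, without cells over 20000 UMIs 5, and 20 to 72.

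Leaving out 1 library moved the genotype difference in share of all cells from -0.578 to 0.144 points (granule-positive -0.307 to 0.288), of epithelial cells from -0.636 to -0.0241 (granule-positive -0.360 to 0.201), and in the Tph1-positive share from 8.67 to 22.3 (granule-positive 1.10 to 12.5). Each such setting leaves 1 genotype with a single kit, so kit and genotype are mixed in these ranges.

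Of the named genes' values under alternatives, 599 kept direction and side of the threshold, 339 were no longer past it, 22 newly passed it and 11 changed sign. With granule-positive cells the log2 difference became 0.28 for Agr2 in the Tph1 split, and 2.03 for Ang4, 2.09 for Hist1h2ap, 7.99 for Pla2g10 and 0.86 for Tff2 in the interaction. Thinned, the interaction became -0.10 for Htra1, -0.69 for Notum, -0.26 for Plat and -0.87 for Sbspon, and with granule-positive cells -0.61 for Aqp5 and -0.67 for Notum. Depth limits these sums, since granule-positive cells of a library held 85242 to 405672 UMIs in all.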
